A study of Mus musculus with 12 samples.

Results

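The receptor for growth hormone in the liver, its close relative the prolactin receptor, the kinase and transcription factors that carry their signal, and the repressors acting behind them were followed across the livers of 12 mice. These are 9 genes of the 57180 in the deposited gene tables, chosen by name: Ghr, Prlr, Jak2, Stat5a, Stat5b, Socs2, Cish, Bcl6 and Cux2. All 9 passed the filter on low counts and were among the 19350 genes tested. Bulk liver RNA was sequenced from 3 females and 3 males of each of 2 groups, Het and KO. Every mouse, Het and KO alike, lacked Csa (Ercc8 in the annotation) and had been given AAV9-CSA, a vector carrying a human CSA cDNA behind a CBA promoter, into the cerebral ventricles as a newborn. The KO mice are the CX mice, collected once they had reached a humane endpoint, and treated littermates of matched age form the Het group, so genotype and the illness of the endpoint cannot be told apart. For the KO group the series' design text gives Csa-/-;Xpa+/+ whereas CX mice are elsewhere described as lacking both Csa and Xpa, and Het stands for Csa-/-;Xpa+/-. Xpa was measured at 0.992 to 1.83 CPM (counts scaled to the same library size in every liver) in the KO livers and at 3.10 to 6.34 CPM in the Het livers, a log2 fold change of −1.83 (SE 0.163, adjusted p = 4.15e-05), and the groups are therefore called KO and Het as labelled. Reads assigned to Ercc8, the gene all mice lack, were present in every liver, at 5.10 to 8.68 CPM in Het and 14.8 CPM or more in KO livers (log2 fold change 1.62, SE 0.174, adjusted p = 0.000156). Ages of single mice are not given in the labels. Single livers are named as there by group, sex and mouse number (KO_F_112).

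Growth hormone from the pituitary binds GHR on hepatocytes and activates the receptor-bound kinase JAK2, which phosphorylates STAT5A and STAT5B. The STAT5 proteins then enter the nucleus and switch on genes for growth, such as Igf1, together with the feedback inhibitors Socs2 and Cish. In rodents the hormone is released in spaced pulses in males and more continuously in females, and this difference gives the liver its male and female gene programmes, in which BCL6 is a repressor more abundant in males and CUX2 a repressor found mainly in females. PRLR, the receptor for prolactin, uses the same kinase and STAT5 proteins and is more abundant in female mouse liver.

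STAT5 dimers recognise the palindrome TTCNNNGAA, and the stretches before the start sites of Bcl6 and Cish are shown because these genes carry that motif near a start and stand at the receiving end of the pathway. RefSeq promoter windows of 300 bases, 250 before and 50 from the start, were available for 8 of the 9 genes, all but Socs2, in 15 windows. The motif, which is its own reverse complement so that one strand covers both, was present in 4 of these 15 windows, against 8.30% of all 32851 RefSeq windows. The 15 windows of these genes were placed on GRCm39 by exact sequence match. Bcl6, on the minus strand of chromosome 16 from 23783802 to 23807602, has one window before its annotated gene start and a second at a start within the gene. The 250 bases before the start within the gene overlapped no annotated exon and held 3 copies, all between 168 and 88 bases before the start, a number reached by 0.0335% of all windows. The window before the gene start held 1 copy. The 250 bases before each start are given 5′ to 3′ on the strand of the gene, with the motif in capitals.
Bcl6, chr16:23807603-23807852, minus strand: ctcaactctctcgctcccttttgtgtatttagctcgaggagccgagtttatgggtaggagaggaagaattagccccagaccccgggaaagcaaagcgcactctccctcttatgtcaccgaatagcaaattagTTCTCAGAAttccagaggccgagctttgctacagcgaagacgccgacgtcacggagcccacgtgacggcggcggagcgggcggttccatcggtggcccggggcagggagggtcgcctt
Bcl6, chr16:23800034-23800283, minus strand: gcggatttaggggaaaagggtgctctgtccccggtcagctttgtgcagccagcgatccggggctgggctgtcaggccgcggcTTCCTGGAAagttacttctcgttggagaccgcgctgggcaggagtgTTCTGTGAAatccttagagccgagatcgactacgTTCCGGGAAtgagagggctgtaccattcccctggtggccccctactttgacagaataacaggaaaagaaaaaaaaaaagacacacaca
Cish, on the plus strand of chromosome 9 from 107173225 to 107179983, held 2 copies, beginning at bases 1 and 12 counted from its RefSeq start, which lies within an annotated exon, and 28 bases over them are given.
Cish, chr9:107173854-107173881, plus strand: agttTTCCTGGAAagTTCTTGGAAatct
Prlr, on the plus strand of chromosome 15 from 10177258 to 10349959, held 1 copy (TTCTAGGAA), at 110 bases before the second of its 3 starts. No copy was found in the windows of Ghr, Jak2, Stat5a, Stat5b or Cux2. A match is a string of letters and was not measured as a binding site.

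The libraries held between 30044781 and 43634046 counts assigned to genes. The 12 pairs of livers within groups differed in their counts at 56.6 to 147 times the chi-square that sampling noise alone gives, so none was a copy of another. The summed level of 6 hepatocyte markers with a single gene ID each was 20630 to 33100 TPM (length-adjusted transcript abundance scaled to the same total in every library) in the Het livers and 27570 to 44040 TPM in the KO livers. Summed markers of Kupffer cells and macrophages (8 genes) ran from 98.6 to 125.2 TPM in Het females, 40.0 to 53.6 in Het males, 138 to 196 in KO females and 61.0 to 178 in KO males. Stellate cell markers (6 genes) summed to 80.6 to 90.6 TPM in Het females and 38.1 to 42.9 in KO females, and to 40.5 to 62.5 in Het males and 31.9 to 58.0 in KO males. Endothelial markers (6 genes) summed to 54.7 to 67.9, 28.5 to 44.1, 34.2 to 37.2 and 26.3 to 45.3 TPM in the female Het, male Het, female KO and male KO livers in turn. Cholangiocyte markers (5 genes) summed to between 9.06 and 30.8 TPM, lymphocyte markers (8 genes) to between 2.48 and 7.44 and those of monocytes and neutrophils (6 genes) to between 1.23 and 7.18, with Ly6g at 0 in all Het males and all KO females. Clock genes (17 measured) summed to 206 to 349 TPM in 11 livers and to 114 TPM in Het_F_115. A sum can hide single genes that differ in opposite directions. Over both sexes 2 clock genes were called higher and 1 lower in KO livers, against 12.2% and 10.2% of all tested genes. In females the counts were again 2 and 1, against 5.94% and 5.10%, and in males none was called, against 4.47% and 2.98%. Of 3 pituitary genes, whose sum was at most 0.0791 TPM, Gh and Prl, the hormones themselves, had no count in any liver, which allows at most 3 counts a library. The part of cell makeup in the results that follow was not tested, and in bulk RNA fewer cells of a type and less RNA per cell cannot be told apart.

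Between KO and Het livers of both sexes, 5 of the 9 genes passed the test, where 22.4% of all tested genes did. Socs2, Cux2 and Stat5b were higher in KO livers and Ghr and Bcl6 were lower, against 12.2% of all tested genes higher and 10.2% lower. The KO and Het livers did not overlap at all for 2 genes, Stat5b and Socs2, where this held for 9.35% of all tested genes, 4.72% with KO higher as in both genes. In females alone 1 gene passed (Stat5b, higher) against 11.0% of all genes and 5.94% higher, and in males alone 4 passed (Ghr, Socs2, Bcl6 and Cux2) against 7.45% of all genes, 4.47% higher and 2.98% lower. The 3 female KO livers were separate from the 3 female Het livers for 3 of the 9 genes and the male livers for 6 of the 9, where 30.4% and 32.1% of all tested genes separate. The difference between the sexes in the KO effect passed the test for none of the 9 in edgeR, where 0.0465% of all genes did. At an unadjusted p under 0.05 it held for 3 of them, Cux2, Bcl6 and Jak2, a threshold at which all tested genes were not counted. DESeq2 called 1 of the 9, Cux2, and 162 over all tested genes. Limma called none of the 9, and 43 and 33 over all tested genes at a pseudocount of 1 and 0.1. The median log2 fold change of the 9 genes over both sexes was 0.35, against 0.02 over all tested genes.

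**Figure D1:**
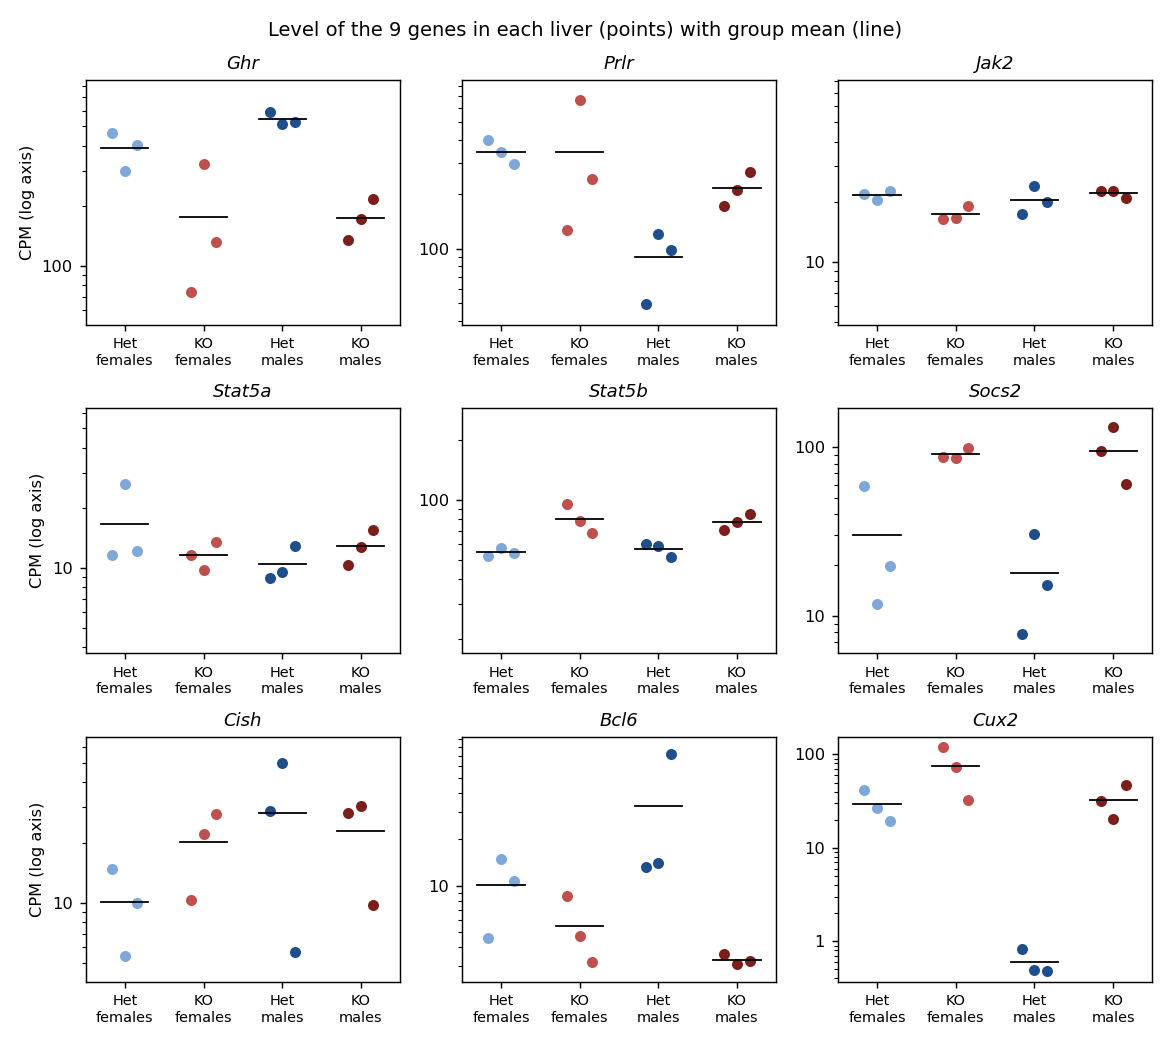
CPM of the 9 genes in each of the 12 livers on log axes that differ between panels, with 1 point per liver, a line at the group mean and 3 livers per group. Cux2 lay at 0.480 to 0.834 CPM in Het males and at 19.3 CPM or more in every other liver, and Socs2 was higher in every KO liver than in any Het liver.

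Ghr, the growth hormone receptor (chromosome 15, 3347235 to 3613024, minus strand), was the most abundant of the 9 genes in both Het groups. The Het females had 464, 300 and 405 CPM and the Het males 589, 515 and 524 CPM. The KO females had 73.6, 324 and 131 CPM and the KO males 135, 171 and 217 CPM. All 3 KO males lay below all Het males, whereas KO_F_112, at 324 CPM, lay above Het_F_115. The level in KO livers fell by 1.39 on the log2 scale over both sexes (SE 0.301, adjusted p = 0.00873), a 2.63-fold fall. In males the log2 fold change was −1.64 (SE 0.429, adjusted p = 0.0426), and in females −1.15 (SE 0.423, adjusted p = 0.102). The female comparison turned on KO_F_112, without which it was −1.93 (SE 0.292, adjusted p = 0.00897), and it also passed with DESeq2 (adjusted p = 0.0394) and limma (0.033 and 0.0365). The male call was lost when any 1 of the 6 males, Het_F_111 or Het_F_126 was left out, with log2 fold changes from −1.49 to −1.83 and adjusted p from 0.0529 to 0.136. It was also lost on length-scaled counts (adjusted p = 0.0516), on scaled counts (0.0626) and with no filter on low counts (0.117), while the call over both sexes held under every alternative tried. The difference between males and females in the KO effect was −0.49 (SE 0.592, adjusted p = 0.813).

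Prlr, the prolactin receptor, passed the test in no genotype comparison, and its levels separated the sexes in the Het livers. It stood at 400, 343 and 293 CPM in Het females and at 49.3, 121 and 98.1 CPM in Het males, so that no male reached the lowest female. The KO males, at 173, 211 and 267 CPM, were all above the Het males and all below the Het females. The KO females were the most scattered group, with 128, 663 and 244 CPM. Male Het livers differed from female ones by −1.95 on the log2 scale (SE 0.527, adjusted p = 0.161), which passed with KO_F_112 left out (adjusted p = 0.0289), with DESeq2 (0.0045) and with limma (0.0303 and 0.0374). KO males differed from Het males by 1.28 (SE 0.517, adjusted p = 0.163), which passed only when KO_F_112 was left out (adjusted p = 0.0479). In females the same difference was −0.000456 (SE 0.508, adjusted p = 1), and over both sexes it was 0.64 (SE 0.361, adjusted p = 0.232).

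Set against Ghr in the same liver, on the TPM scale that allows for transcript length, Prlr stood closer to Ghr in KO males than in Het males and above it in KO females. The ratio of Prlr to Ghr was 0.0855 to 0.195 in Het males, 0.578 to 0.913 in Het females, 0.799 to 1.02 in KO males and 1.25 to 1.47 in KO females. The groups of one sex did not overlap, nor did KO males overlap KO females, and the KO males overlapped the Het females. KO_F_112, which stood apart in both genes, had a ratio of 1.47 beside 1.25 and 1.38 in the other KO females. Prlr thus lay above Ghr in 3 of 3 KO females, in 1 of 3 KO males and in no Het liver.

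**Figure D2:**
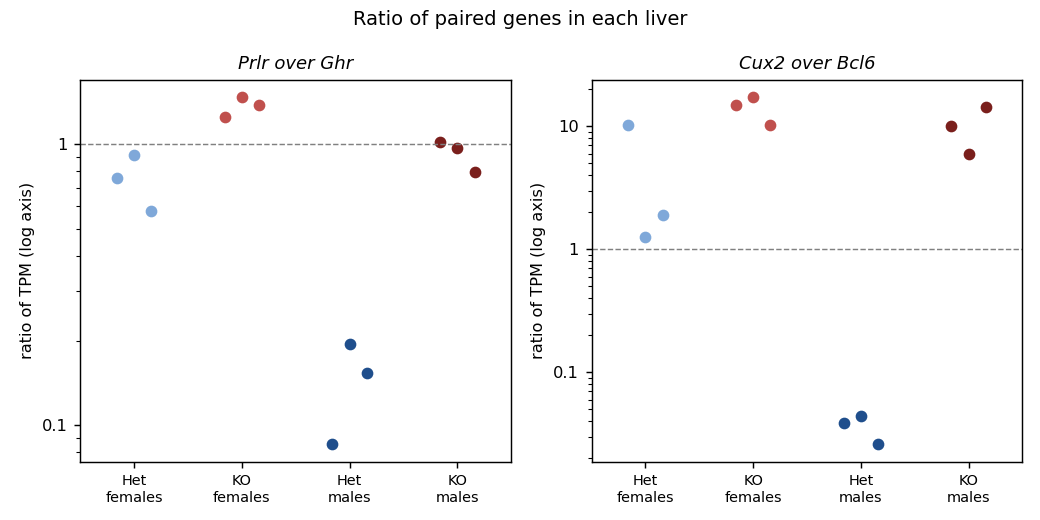
Ratio of TPM in each liver on log axes for Prlr over Ghr (left) and Cux2 over Bcl6 (right), with 1 point per liver and a dashed line at a ratio of 1. Het males lay at 0.195 or below for Prlr over Ghr and at 0.0438 or below for Cux2 over Bcl6, and every other liver lay above them.

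Jak2, the kinase bound to both receptors (chromosome 19, 29228677 to 29290505, plus strand), stayed between 16.5 and 23.9 CPM in all livers. KO females (16.5, 16.6 and 18.9 CPM) were all below Het females (21.8, 20.4 and 22.6 CPM), and males overlapped (17.3, 23.9 and 19.96 CPM in Het, 22.6, 22.5 and 20.9 CPM in KO). Its log2 fold change was −0.10 over both sexes (SE 0.0923, adjusted p = 0.45), −0.32 in females (SE 0.131, adjusted p = 0.132) and 0.11 in males (SE 0.131, adjusted p = 0.663).

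Of the STAT5 genes, Stat5b passed the test and Stat5a did not. Stat5b (chromosome 11, 100671556 to 100741589, minus strand), whose product carries most of the male growth hormone signal in liver, ran from 51.6 to 60.1 CPM in the 6 Het livers and from 67.8 to 94.8 CPM in the 6 KO livers. The KO females had 94.8, 77.9 and 67.8 CPM and the KO males 70.7, 77.0 and 84.7 CPM, each above every Het liver. It rose by 0.50 on the log2 scale over both sexes (SE 0.0958, adjusted p = 0.00405), a 1.42-fold rise. The estimates were 0.56 in females (SE 0.135, adjusted p = 0.0259) and 0.45 in males (SE 0.135, adjusted p = 0.066). The female call was lost without any 1 of Het_F_111, Het_F_115, Het_F_126, KO_F_108 and KO_F_112 (log2 fold change 0.40 to 0.58, adjusted p 0.054 to 0.0892), with limma (0.102 and 0.103), with the 6 female livers alone (0.105) and without KO_F_112 and Het_M_137 together (0.0734). The male comparison passed without KO_F_108 (adjusted p = 0.0296), with at least 10 reads in every liver (0.0491), with upper quartile or library size scaling (0.0462 and 0.0467), with DESeq2 (0.0391) and with the 6 male livers alone (0.0482).

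Stat5a, the close paralogue next to Stat5b (chromosome 11, 100750177 to 100776065, plus strand), was lower than Stat5b in every liver. It measured 11.6, 26.4 and 12.1 CPM in Het females, 8.94, 9.50 and 12.9 in Het males, 11.7, 9.72 and 13.4 in KO females and 10.3, 12.7 and 15.5 in KO males. Only Het_F_115 stood apart, at 26.4 CPM. The log2 fold change over both sexes was −0.11 (SE 0.21, adjusted p = 0.737), and it was 0.12 without that liver (adjusted p = 0.578). The ratio of Stat5b to Stat5a in TPM was 1.38 to 4.32 in Het livers and 3.22 to 6.17 in KO livers, with overlap. Reads shared by these related genes were divided between them by the authors' estimation of counts.

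Socs2 (chromosome 10, 95219523 to 95253929, minus strand), an inhibitor induced by STAT5 that limits signalling by the receptor, separated the genotypes by a narrow gap, whereas Cish did not separate them. The Het females had 59.1, 11.8 and 19.7 CPM and the Het males 7.81, 30.5 and 15.3 CPM. The KO females had 87.4, 86.0 and 98.7 CPM and the KO males 95.4, 131 and 60.3 CPM. The highest Het liver (Het_F_111, 59.1 CPM) lay just under the lowest KO liver (KO_M_136, 60.3 CPM), and no livers overlapped. Socs2 rose 4.01-fold over both sexes (log2 fold change 2.002, SE 0.438, adjusted p = 0.0108). In males the rise was 5.34-fold (2.42, SE 0.63, adjusted p = 0.0459), and in females the estimate was 1.59 (SE 0.611, adjusted p = 0.119). Without Het_F_111 the female value was 2.51 (adjusted p = 0.0334), and it passed with DESeq2 (0.026) and limma (0.0396 and 0.0397). The male call was lost when any 1 of the 6 males, any KO female or Het_F_126 was left out, with adjusted p from 0.0514 to 0.132, and without KO_F_112 and Het_M_137 together (0.168). It was also lost with no filter on low counts (adjusted p = 0.113), with the legacy quasi-likelihood method (0.0504) and with the 6 male livers alone (0.0586).

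Cish, the second feedback inhibitor, did not pass the test. Its levels were 14.7, 5.43 and 9.96 CPM in Het females, 28.8, 50.2 and 5.66 in Het males, 10.3, 22.1 and 27.7 in KO females and 28.2, 30.7 and 9.78 in KO males. All 4 groups overlapped. The log2 fold change was 0.35 over both sexes (SE 0.504, adjusted p = 0.663), 0.995 in females (SE 0.721, adjusted p = 0.398) and −0.30 in males (SE 0.712, adjusted p = 0.842). The ratio of Socs2 to Cish in TPM was 0.659 to 7.43 in Het livers and 7.34 to 15.0 in KO livers. The ratio of Socs2 to Ghr, also on the TPM scale, ran from 0.0195 to 0.161 in Het livers and from 0.321 to 1.32 in KO livers, without overlap. Socs2 alone did not overlap and Ghr was lower in KO livers, so this separation is not a further finding.

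Bcl6, the repressor more abundant in males, had 4.59, 14.9 and 10.7 CPM in Het females and 13.2, 14.1 and 71.5 CPM in Het males. It had 8.62, 4.71 and 3.19 CPM in KO females and 3.58, 3.09 and 3.22 CPM in KO males. The KO males were the lowest and closest group, all below every Het liver, and the female groups overlapped. Over both sexes Bcl6 fell 4.23-fold (log2 fold change −2.08, SE 0.49, adjusted p = 0.0148). In males it fell 9.83-fold (−3.30, SE 0.724, adjusted p = 0.0251), and in females the estimate was −0.87 (SE 0.672, adjusted p = 0.433). Het_M_137, at 71.5 CPM, stood far above the other Het livers. Without it the value over both sexes was −1.46 (SE 0.309, adjusted p = 0.0118) and that in males −2.04 (SE 0.458, adjusted p = 0.0408). The male call was lost without any 1 KO male (−3.25 to −3.36, adjusted p from 0.0764 to 0.0815), with no filter on low counts (adjusted p = 0.066), with limma at a pseudocount of 1 (0.0687), with the 6 male livers alone (0.0629) and with both Het_M_137 and KO_F_112 left out (0.0582). The male KO effect less the female one was −2.43 (SE 0.959, adjusted p = 0.492), and −1.17 without Het_M_137. Among Het livers males less females came to 1.70 (SE 0.676, adjusted p = 0.387), and to 0.425 without that liver (SE 0.453, adjusted p = 0.817).

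Cux2, the repressor of female liver (chromosome 5, 121994429 to 122188521, minus strand), showed the largest change of the 9 genes. The Het females had 41.7, 26.6 and 19.3 CPM, and the Het males 0.834, 0.488 and 0.480 CPM, from 25, 15 and 15 counts with exact Poisson 95% intervals from 8.40 to 36.9 counts. The KO males had 31.5, 20.3 and 46.9 CPM, within or just above the range of the Het females. The KO females had 119.1, 73.1 and 32.2 CPM. On the CPM scale every KO male thus had at least as much Cux2 as the lowest Het female, and no Het male came near. On the TPM scale KO_M_122, at 3.67, lay below the lowest Het female, Het_F_115, at 4.26. In males Cux2 rose 50.2-fold (log2 fold change 5.65, SE 0.587, adjusted p = 0.000699). In females the estimate was 1.36 (SE 0.466, adjusted p = 0.0859), which passed with DESeq2 (1.36, adjusted p = 0.0228) and without KO_F_123 (1.71, adjusted p = 0.0208). Over both sexes the log2 fold change was 3.50 (SE 0.371, adjusted p = 0.000283).

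The KO effect on Cux2 in males exceeded that in females by 4.30 on the log2 scale (SE 0.707). This difference had an unadjusted p of 0.000102 and an adjusted p of 0.0811 over all genes, and passed without KO_F_123 (3.93, adjusted p = 0.0284), without robust estimation (adjusted p = 0.0474) and with DESeq2 (4.41, adjusted p = 8.31e-08). Among Het livers Cux2 was 44.6-fold lower in males than in females (log2 fold change −5.48, SE 0.583, adjusted p = 0.00153), the only one of the 9 genes to pass there, where 0.920% of all genes did and 0.460% were lower in males. The sexes were separate in Het livers for 3 of the 9 genes (Ghr higher, Prlr and Cux2 lower in males) and for 17.2% of all genes. Among KO livers the sex difference was −1.19 (SE 0.464, adjusted p = 0.336), with none of the 9 genes past the test, against 0.0517% of all genes. That share stands for 10 genes, a count that was 284 without KO_F_123 and 315 with DESeq2. None of the 9 was called between KO sexes by DESeq2 or limma. At an unadjusted p under 0.05 there were 2, Cux2 and Jak2, a threshold at which all tested genes were not counted.

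In males the repressors Cux2 and Bcl6, set side by side in each liver, differed in opposite directions between Het and KO. In females neither gene passed the test in edgeR, where Cux2 did with DESeq2, and their ratios overlapped between the genotypes. The TPM ratio of Cux2 to Bcl6 was 0.0390, 0.0438 and 0.0259 in Het males and 9.99, 5.92 and 14.5 in KO males. It was 10.3, 1.26 and 1.91 in Het females and 15.0, 17.3 and 10.2 in KO females. The KO males overlapped both female groups and lay far from the Het males, whose Cux2 lengths, resting on few counts, varied from 0.296 to 1.88 of the median over livers on the scale used for TPM.

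**Figure D3:**
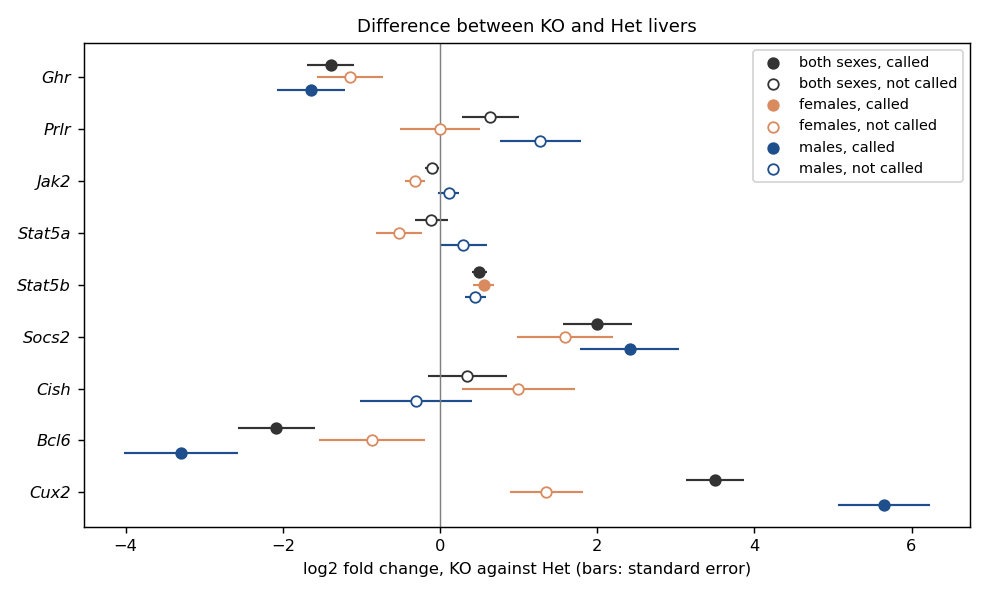
Log2 fold change of KO against Het for each gene over both sexes, in females and in males, with bars of 1 standard error, filled points at an adjusted p under 0.05 in edgeR and open points otherwise. Cux2 in males, at 5.65, lay farthest to the right and Bcl6 in males, at −3.30, farthest to the left.

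By TPM, which compares genes per length, the order of the 9 genes differed between groups. Het females ran from Ghr (135 ± 15.4 TPM, SD, n = 3) and Prlr (100 ± 16.4) to Socs2 (12.0 ± 10.2), Stat5b (9.31 ± 0.326), Cux2 (6.47 ± 3.66), Stat5a (4.36 ± 2.29), Jak2 (3.90 ± 0.150), Bcl6 (2.25 ± 1.17) and Cish (2.25 ± 1.0). From Socs2 downwards neighbours in that order differed by less than the larger of their SDs, except Jak2 and Bcl6. In Het males Ghr (155 ± 5.96 TPM) stood well above Prlr (22.4 ± 8.12) and Stat5b (8.16 ± 0.0921), then Bcl6 (6.60 ± 6.99), Socs2 (6.25 ± 3.75), Cish (5.04 ± 4.12) and Jak2 (3.15 ± 0.554) followed, all within that spread of their neighbours. Stat5a (2.23 ± 0.514) lay below them and Cux2 came last at 0.198 ± 0.159. In KO females the group means of Prlr (82.9 ± 61.4), Ghr (58.8 ± 39.7) and Socs2 (38.2 ± 4.47) were not separated beyond their spread. Within each of these livers Prlr lay above Ghr, at ratios of 1.25 to 1.47. Cux2 (17.9 ± 12.1) and Stat5b (12.8 ± 3.16) came next and were not separated from each other, then Cish (4.28 ± 1.56), Jak2 (3.03 ± 0.350) and Stat5a (2.59 ± 0.706), likewise not separated, and Bcl6 was last at 1.22 ± 0.735. In KO males the group means of Ghr (56.7 ± 16.3) and Prlr (51.6 ± 8.17) were not separated beyond their spread, Socs2 (38.7 ± 11.8), Stat5b (11.8 ± 0.769) and Cux2 (7.04 ± 3.16) followed in separate steps, Cux2, Cish (4.39 ± 2.12), Jak2 (3.68 ± 0.122) and Stat5a (3.09 ± 0.847) each lay within the spread of the next, and Bcl6 closed the order at 0.686 ± 0.0667.

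Of the 42 other genes listed for the pathway (kinases, adaptors, phosphatases, SOCS and PIAS family members and the remaining STATs), 40 were tested, and 7 were higher and 1 lower in KO livers of both sexes, against 12.2% of all tested genes higher and 10.2% lower, with a median log2 fold change of 0.03 against 0.02 over all tested genes. Stat3, which serves cytokine receptors of the interleukin-6 family, was higher by 1.04 (SE 0.138, adjusted p = 0.000542), with 162 to 304 CPM in KO livers and 93.7 to 111.4 CPM in Het livers. Jak3 (0.48, SE 0.107, adjusted p = 0.00893) is a kinase of cytokine receptors in blood cells. Ptpn1 (0.36, SE 0.0818, adjusted p = 0.00939) is a phosphatase that acts on JAK2. Sh2b3 (0.44, SE 0.129, adjusted p = 0.0294) is an adaptor that restrains JAK2. The Ptpn1 call was lost with limma (adjusted p = 0.0586 and 0.0641). That of Sh2b3 was lost without any 1 of Het_F_111, Het_F_115, Het_M_125, Het_M_137, KO_F_108, KO_M_118 and KO_M_122 (adjusted p from 0.0501 to 0.0852). It was also lost without KO_F_112 and Het_M_137 together (0.0916). Socs3, the inhibitor induced by STAT3, was higher by 1.64 (SE 0.422, adjusted p = 0.0213), with 44.2 to 96.5 CPM in KO females against 2.55 to 8.88 in Het females and overlapping values in males. Its call was lost without Het_M_125 (adjusted p = 0.0515), with no filter on low counts (0.0526) and in a model without the interaction term (0.145). Pik3r1, a regulatory subunit of phosphoinositide 3-kinase, fell by 0.77 (SE 0.173, adjusted p = 0.00906). The count of higher genes dropped to 3 without Het_M_125 and to 4 without any 1 of Het_M_137, KO_F_108, KO_M_118 and KO_M_122, and that of lower genes rose to 2 without any 1 of Het_F_111, Het_F_115, KO_F_108 and KO_F_123.

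Among 12 genes listed as growth hormone targets, none was higher and 2 were lower, against the same 12.2% and 10.2% of all tested genes, with a median log2 fold change of −0.30. The list does not hold Socs2, which STAT5 also induces and which was higher in KO livers as given above. The count of higher genes was 0 in edgeR also at an unadjusted p under 0.05, was 0 in DESeq2 and limma, and was 1 without Het_F_115. Igfals, which encodes the liver protein that holds IGF-1 in the circulation, fell by 1.23 (SE 0.276, adjusted p = 0.0103), from 107.6 to 151 CPM in Het livers to 16.3 to 68.3 CPM in KO livers without overlap. Cyp7b1, an oxysterol hydroxylase more abundant in males, fell by 2.22 (SE 0.232, adjusted p = 0.000161). Igf1 itself, the growth factor of the pathway, had 476 to 789 CPM in Het and 354 to 542 CPM in KO livers, and its log2 fold change of −0.27 (SE 0.139, adjusted p = 0.189) did not pass, although it did on counts scaled by transcript length (−0.38, adjusted p = 0.024), on scaled counts (−0.37, adjusted p = 0.0225) and with limma on TPM (−0.36, adjusted p = 0.0267).

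Genes known to be biased to one sex in mouse liver were listed as the readout of the programme that Bcl6 and Cux2 act on. These lists were chosen with earlier results of these data known. In Het livers 19 of 33 tested male-biased genes were higher in males and 20 of 36 female-biased genes were lower in males, where 0.920% of all tested genes differed in either direction, and 12 male-biased genes passed without either Het_F_111 or Het_F_115. In KO livers 1 and 0 passed, where 0.0517% of all genes did, with medians of the male against female log2 fold change of 1.40 and −0.89 in place of 2.95 and −4.63 in Het. DESeq2 called 10 and 5 of them in KO livers, where over all tested genes it called 131 higher and 184 lower in males. At an unadjusted p under 0.05 in edgeR there were 16 and 14, a threshold at which all tested genes were not counted. Limma called no female-biased gene there. The single male-biased gene was Capn8, and the count was 0 without any 1 of Het_M_137, KO_F_112, KO_M_118 and KO_M_136, and 2 without Het_F_115 or KO_F_123. In KO against Het males 16 male-biased genes were lower and 22 female-biased genes were higher, against 2.98% of all tested genes lower and 4.47% higher, with medians of −2.42 and 3.67. The female-biased count was 13 without Het_M_137. In KO against Het females 11 male-biased genes were lower (6 without KO_F_112 and 5 without KO_F_108), against 5.10% of all tested genes lower and 5.94% higher. The 2 male-biased genes that were higher there, named after their values were seen, were Scara5 (4.99, SE 0.861, adjusted p = 0.00996) and Cyp4a12b (4.37, SE 0.883, adjusted p = 0.0173), and only 1 passed without Het_F_111 or KO_F_108. Also in females, 3 female-biased genes were higher and 3 lower (1 lower without any 1 of Het_F_111, Het_F_115 and KO_F_108). The Het males enter both the sex comparison in Het livers and the genotype comparison in males. The male-biased list holds several members of the Mup and Cyp4a12 families and the female-biased list several of the Cyp2b, Cyp2c and Cyp3a families, near-identical copies between which reads may be split.

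**Figure D4:**
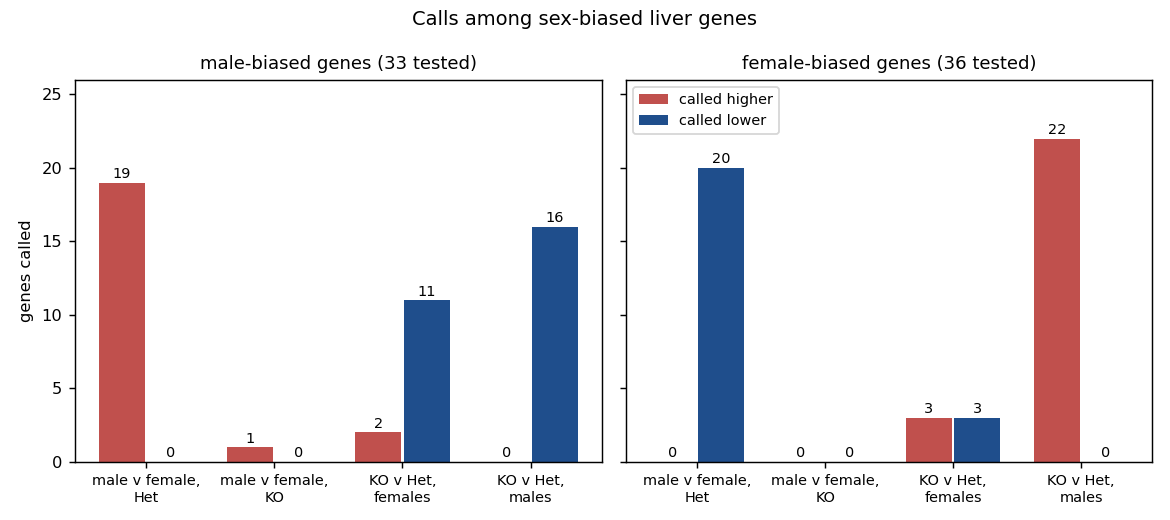
Number of male-biased (left, 33 tested) and female-biased (right, 36 tested) liver genes called higher or lower at an adjusted p under 0.05 in 4 comparisons, with bars from 0. Of the male against female differences, 19 and 20 passed in Het livers and 1 and 0 in KO livers.

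Among male-biased genes those with the smallest p over both sexes were Cyp2u1 (log2 fold change −2.86, SE 0.177, adjusted p = 2.25e-06), Mup3 (−5.81, SE 0.481, adjusted p = 5.16e-05), Nudt7 (−3.19, SE 0.308, adjusted p = 0.000124) and Cyp7b1 above. Cyp2u1 encodes a cytochrome P450, Mup3 a major urinary protein and Nudt7 a peroxisomal coenzyme A hydrolase. Of the male-biased genes with the smallest p between the sexes in Het livers, Ugt2b38 had 12.2 to 64.5 CPM in Het males and 0.0874 to 0.116 in KO males, from 3 to 5 counts, and Capn8 differed between the sexes by 4.78 (SE 0.467, adjusted p = 0.000437) and between genotypes by 0.65 (SE 0.281, adjusted p = 0.118). Female-biased genes with small p over both sexes included Cyp2a4 (5.47, SE 0.285, adjusted p = 7.53e-07), Cyp26a1 (3.38, SE 0.297, adjusted p = 6.68e-05) and Cyp2c39 (2.17, SE 0.248, adjusted p = 0.000253). In a model without the interaction term the value for Cyp2a4 no longer passed (adjusted p = 0.111).

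Among the genes nearest to Cux2 in pattern, out of all other genes tested, were the female-biased liver genes Cyp2a4 and Cyp2c39. Likeness was the root mean square difference of standardised log2 CPM over the 12 livers, where 0 is the same pattern, and it was 0.244 for Cyp2a4, a steroid hydroxylase, and 0.244 for Cyp2c39, a cytochrome P450. Cyp2a4 measured 311 to 551 CPM in Het females, 0.512 to 0.813 in Het males, 638 to 1148 in KO females and 420 to 1013 in KO males. Nearest to Ghr were Atrnl1 (0.253), Erp44 (0.289) and Ptprd (0.292), and nearest to Socs2 were Cda (0.300), Chmp4c (0.363) and Or51v8 (0.364). Nearest to Cish were Gm9385 (0.271), Egfros (0.473) and Zyg11a (0.480), and nearest to Bcl6 were Mis12 (0.330), Mief1 (0.384) and Synrg (0.414).

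**Figure D5:**
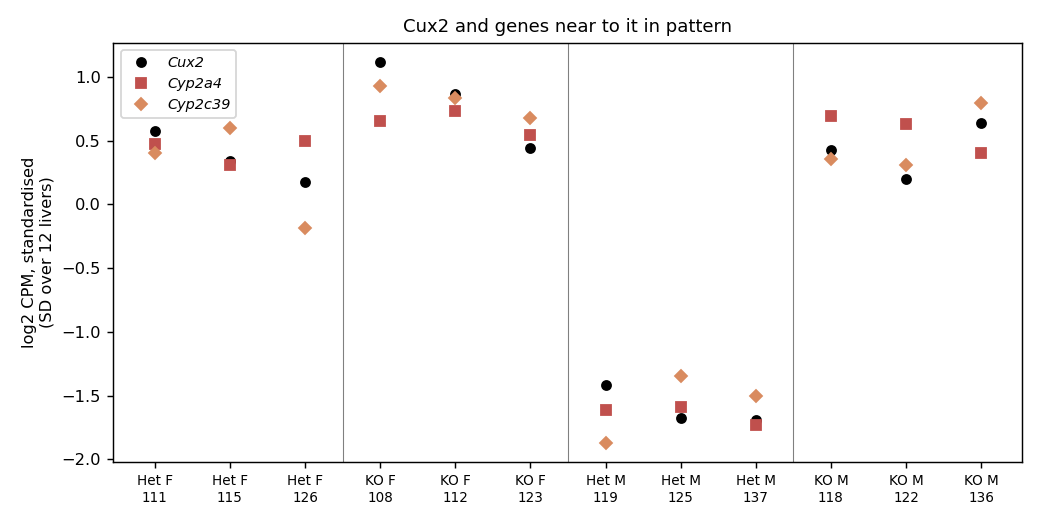
Standardised log2 CPM (units of SD over the 12 livers) of Cux2 and of Cyp2a4 and Cyp2c39, which are near to it in pattern, with 1 column per liver. For all of these genes the 3 Het males lay lowest, and Cux2 was between −1.69 and −1.42 there and between 0.202 and 0.636 in KO males.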

How the data were processed

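Stranded total RNA depleted of ribosomal RNA from 12 livers had been processed by the authors with nf-core/rnaseq, STAR 2.7.9a (GRCm39, GENCODE annotation) and Salmon 1.10.1. The authors deposited 1 table of estimated counts, 2 tables of counts rebuilt from abundance, and TPM. Estimated counts were rounded, since 12.0% of values were not whole, and analysed in R 4.3.3 with edgeR 4.0.16: a minimum of 5 reads in 3 or more livers, TMM scaling, a mean per group, robust quasi-likelihood F tests with a prior count of 2, and Benjamini-Hochberg adjustment over all 19350 genes tested, called under 0.05. CPM used TMM library sizes. TPM served for levels between genes, ratios and limma 3.58.1, and DESeq2 1.42.0 was another alternative. Totals of 30044781 to 43634046 counts limit genes at few counts, and intervals and limits for 0 counts cover counting error only. P-values weigh the differences between group means against the spread between mice within groups. The fit was tested on simulated data.

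The 9 genes and all lists were chosen with earlier results of these data known. Named by rule were the 9, Gh, Igf1, pathway genes called with the smallest p (5 a direction), per other list 4 with the smallest p between genotypes and, for sex-biased lists, 3 between Het sexes, and the 3 nearest patterns of 5 genes. One gene that the rule gives is counted in its list and not reported here. A list of clock genes was measured because the levels of its genes can follow the hour of collection, which their sum may not show. The 15 RefSeq promoter windows (GRCm38.p6) of these genes were placed on GRCm39 by exact match, and gene positions are from GENCODE M39.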

Additional observations from a re-analysis of the deposited data

Results flagged for a closer look

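The difference between the sexes in KO effect (males less females) passed the test for 5 of 36 female-biased genes (edgeR, adjusted over all genes), among them Cyp2a4 and Slc22a26, where 0.0465% of all tested genes passed. The list was chosen with earlier results of these data known, and the paper's plot of this interaction labels both genes. The count is therefore not an independent test of the list. The count of 5 was 2 without any 1 of Het_F_111, Het_F_115, Het_M_137, KO_F_108, KO_F_112, KO_M_122 and KO_M_136 and without KO_F_112 and Het_M_137 together, 3 with no filter on low counts, 9 without KO_F_123, without robust estimation or with limma, and 18 with DESeq2. Over all tested genes the count was 9, between 4 and 90 with 1 liver left out and 162 with DESeq2. Cyp2a4 differed by 9.01 on the log2 scale (SE 0.548, adjusted p = 3.43e-05), with KO livers at 420 to 1013 CPM in males and 638 to 1148 in females. The Het livers had 0.512 to 0.813 CPM in males and 311 to 551 in females. Reads of Cyp2a4 may be shared with its near copy Cyp2a5. Slc22a26 differed by 6.39 (SE 0.779, adjusted p = 0.0297), with 0.167 to 1.59 CPM in Het males, 34.4 to 72.1 in KO males, 108.2 to 135.6 in Het females and 72.2 to 122.6 in KO females. The call of Slc22a26 was lost without any 1 of Het_F_111, Het_F_115, Het_M_137, KO_F_108, KO_F_112, KO_M_122 and KO_M_136, at adjusted p from 0.0719 to 0.122. The cause of these differences was not tested.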

How the results depend on the processing

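No paired analysis was made, since each mouse number occurs once, no number is shared between groups and no litter of single mice was used. The matching of the Het littermates by age therefore did not enter the tests. Over the 36 results of the 9 genes, 887 of 969 values under alternatives kept direction and side of the threshold, 41 lost a call, 25 gained one and 16 changed sign, called in neither. The calls of Ghr, Stat5b, Socs2, Bcl6 and Cux2 over both sexes held under every alternative, with adjusted p at most 0.048. The number of the 9 genes called in females was 1, but 4 with DESeq2, 2 with limma at either pseudocount, 0 with the 6 female livers alone and 0 to 2 with 1 liver left out. In males it was 4, but 1 with no filter, 2 without KO_F_112 and Het_M_137 (chosen after seeing the data) and 1 to 4 with 1 liver left out. The interaction count was 0, but 1 with DESeq2, 1 without robust estimation and 0 to 1 with 1 liver left out. The count between the sexes was 1 over both genotypes, but 2 with DESeq2 and 0 in an additive model, and in Het it was 1, but 2 with DESeq2, 2 with limma and 1 to 2 with 1 liver left out.

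Signs changed for Cish in males (0.0164 and 0.0912 with limma at a pseudocount of 1 and 0.1, −0.80 to 0.40 with 1 liver left out), Jak2 in males (−0.0068 to 0.24 with 1 liver left out), Prlr in females (0.0058 with at least 10 reads in every sample, 0.0057 with relative log expression and with DESeq2, −0.89 to 0.38 with 1 liver left out), Prlr between KO sexes (0.21 without those 2 livers, −1.07 to 0.22 with 1 left out) and Stat5a over both sexes (0.0199 without those 2 livers, −0.23 to 0.12 with 1 left out). The cause was not tested, except that settings with fewer livers have fewer samples. Depth limits Cux2 in Het males, at 15 to 25 counts.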
